A study of Mus musculus with 8 samples.

Results

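Transcripts of 10 genes of testicular macrophages and of MHC class II antigen presentation were measured in RNA-seq libraries of purified pachytene spermatocytes, 4 *Arid1a* WT and 4 *Arid1a* cKO. The genes were taken by name from the 21058 genes listed and comprise the receptors and surface proteins *Adgre1*, *Csf1r* and *Cd68*, the lysozyme *Lyz2*, the complement chains *C1qa*, *C1qb* and *C1qc*, and the class II genes *Cd74*, *H2-Aa* and *H2-Ab1*. All 10 were listed, and all 10 were among the 17643 genes that had enough counts to be tested. *Arid1a* encodes a DNA-binding subunit of the BAF chromatin remodelling complex, and the study asked how its loss alters transcription at the pachytene stage of meiosis.

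*Arid1a* cKO males were *Arid1a* fl/fl; *Stra8-Cre* Tg/0, and *Arid1a* WT males were their *Arid1a* fl/fl or *Arid1a* fl/+ counterparts, so that both groups carried floxed *Arid1a* on a CD1 background. *Stra8-Cre* acts in spermatogonia of the young testis and is used as a germ cell driver, and whether any excision took place in macrophages was not examined here. The study describes the excision as inefficient, so that some cKO spermatocytes escaped it. Adult testes of many males were digested and the cells were separated by sedimentation at unit gravity (Sta-Put), which enriches pachytene spermatocytes by size and leaves other cells in the fractions.

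Testicular macrophages live in the interstitium beside the steroid-producing Leydig cells and on the outer wall of the seminiferous tubules. They depend on signals through the CSF1 receptor, and those at the tubule wall are known for abundant MHC class II. Class II molecules are heterodimers of an alpha and a beta chain that show peptides from engulfed material to helper T cells, and the invariant chain Cd74 holds them empty until they reach the lysosome. C1q, made largely by macrophages, is assembled from 3 chains and starts the classical complement pathway.

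The libraries held 15850961 to 22044507 estimated counts each, and the 10 genes drew between 3 and 91 of these per library. Values below are counts as deposited, CPM, that is counts scaled to a common library size by TMM factors, or TPM, which alone takes the length of a gene's transcripts into account and serves to compare genes. *Arid1a* itself fell from 113 ± 13.8 CPM in *Arid1a* WT to 79.7 ± 2.89 CPM in *Arid1a* cKO (SD, n = 4 each), with no overlap between libraries and a log2 fold change of -0.51 (SE 0.07). Gene positions are those of protein-coding genes in RefSeq on GRCm38.p6. Fold changes throughout are *Arid1a* cKO over *Arid1a* WT on the log2 scale. The test was edgeR's quasi-likelihood test, adjusted by Benjamini-Hochberg over all genes tested, and a gene was called where the adjusted p was at most 0.05. The labels call the libraries biological replicates without saying which animals went into each, and p-values measure the spread between these samples.

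The upstream sequences of a class II gene and of a C1q gene are given first, because each window holds a motif known from background knowledge. RefSeq windows (GRCm38.p6) were matched by symbol for 5 of the 10 genes, and the 250 bases before the annotated gene start were searched on both strands. *H2-Aa* starts on the minus strand and its window is chr17:34287824-34288073. *C1qb* also lies on the minus strand, with its window at chr4:136886201-136886450. Capitals mark TGACGTCA, an X2-box-like cyclic AMP response element, and CTGATTGG, an inverted CCAAT or Y box, in *H2-Aa*, and GAGGAA, the purine-rich core that the macrophage factor PU.1 recognises, in *C1qb*.
H2-Aa: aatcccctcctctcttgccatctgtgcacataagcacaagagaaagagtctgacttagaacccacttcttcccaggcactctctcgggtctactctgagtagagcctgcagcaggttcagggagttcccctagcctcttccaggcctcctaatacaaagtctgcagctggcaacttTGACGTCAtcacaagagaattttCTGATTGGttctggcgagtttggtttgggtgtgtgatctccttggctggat
C1qb: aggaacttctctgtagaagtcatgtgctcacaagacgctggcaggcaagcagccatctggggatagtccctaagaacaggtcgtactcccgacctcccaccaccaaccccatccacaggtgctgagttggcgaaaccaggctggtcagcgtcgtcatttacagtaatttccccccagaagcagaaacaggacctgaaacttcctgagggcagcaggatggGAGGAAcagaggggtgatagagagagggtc

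In *H2-Aa* the palindrome TGACGTCA lay 74 to 67 bases before the start and CTGATTGG lay 51 to 44 bases before it. Among 32851 windows of the same length, 1.55% held TGACGTCA and 3.83% held CTGATTGG or its reverse CCAATCAG. GAGGAA lay 30 to 25 bases before the start of *C1qb*. This short motif or its reverse TTCCTC was found in 23.3% of all windows and in 3 of the 5 member windows, those of *C1qb*, *C1qc* and *Cd68*. These matches describe the letters of the windows and say nothing of binding in these cells.

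Transcripts of 9 of the 10 genes were higher in *Arid1a* cKO fractions, none was lower, and *Cd68* was not called. The median log2 fold change of the 10 was 1.42 (range 0.27 to 2.17), against -0.02 over all genes tested. Calls were common in this comparison: 74.0% of all genes tested were called, 36.5% higher and 37.5% lower. For 7 of the 10 genes the CPM of the 4 *Arid1a* cKO libraries all exceeded those of the 4 *Arid1a* WT libraries, a pattern seen in 34.0% of all genes tested, and the groups overlapped for *Cd68*, *Cd74* and *H2-Ab1*. In bulk RNA, more macrophages and more of these transcripts per cell cannot be told apart.

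The levels were low in both genotypes. Summed over the 10 genes, TPM was 8.37, 7.52, 8.58 and 8.44 in the *Arid1a* WT libraries and 16.7, 18.9, 19.8 and 17.7 in the *Arid1a* cKO libraries. The summed level thus lay in a narrow band within each genotype, with a mean of 8.22 ± 0.480 TPM in *Arid1a* WT and 18.3 ± 1.35 TPM in *Arid1a* cKO, and the bands did not overlap. In *Arid1a* WT, mean TPM ran from 0.319 ± 0.181 for *C1qc* to 1.38 ± 0.446 for *Lyz2*, and between 13.9% and 29.4% of the genes tested had a lower mean. In *Arid1a* cKO, it ran from 1.03 ± 0.180 for *H2-Aa* to 3.86 ± 0.817 for *Lyz2*, with 25.6% to 43.0% of genes tested below.

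**Figure D1:**
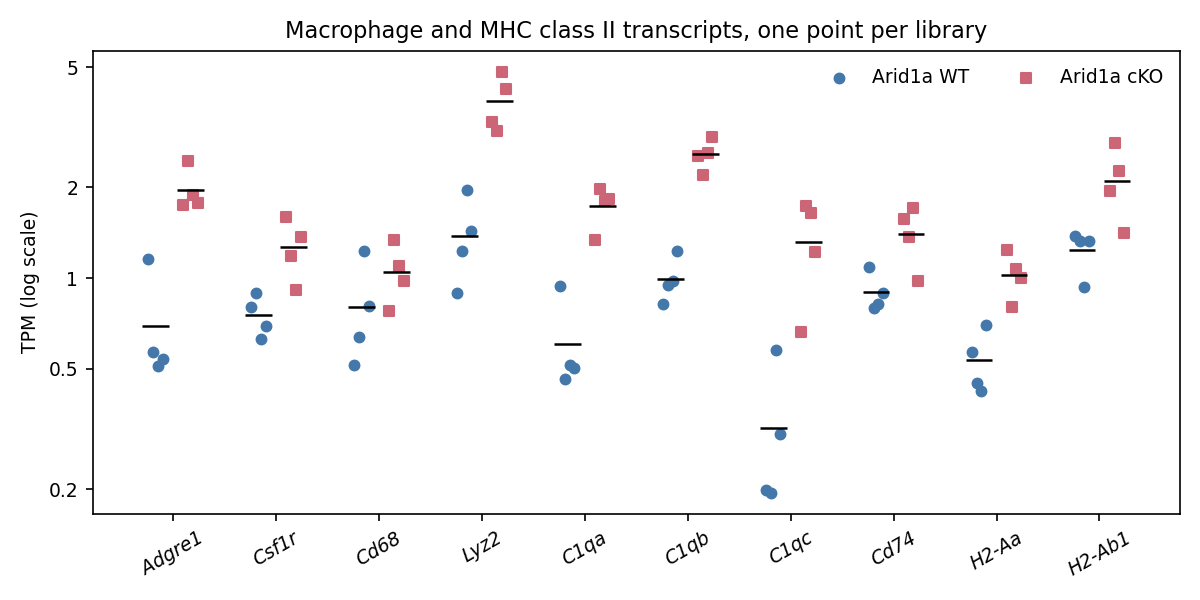
TPM of the 10 genes in each library on a log axis, with *Arid1a* WT libraries as circles, *Arid1a* cKO libraries as squares and the mean of 4 libraries as a bar. *Lyz2* had the highest mean in both genotypes, *C1qc* was lowest in *Arid1a* WT at 0.319 TPM, and all 10 means were higher in *Arid1a* cKO.

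By mean TPM, the order in *Arid1a* WT was *Lyz2*, *H2-Ab1*, *C1qb*, *Cd74*, *Cd68*, *Csf1r*, *Adgre1*, *C1qa*, *H2-Aa* and *C1qc*, and the library ranges of every pair of neighbours overlapped. In *Arid1a* cKO the order was *Lyz2*, *C1qb*, *H2-Ab1*, *Adgre1*, *C1qa*, *Cd74*, *C1qc*, *Csf1r*, *Cd68* and *H2-Aa*. There, *Lyz2* stood above *C1qb* in every library, and all other neighbours overlapped. The C1q chains made up 23.3% ± 1.32 of the summed TPM in *Arid1a* WT and 30.7% ± 2.68 in *Arid1a* cKO (SD, n = 4 each). The class II genes made up 32.7% ± 4.95 in *Arid1a* WT and 24.8% ± 4.0 in *Arid1a* cKO. The libraries of the genotypes did not overlap in the C1q share and overlapped in the class II share, and no test was run on these shares.

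Among the receptors and surface proteins, *Adgre1* and *Csf1r* rose and *Cd68* was not called. *Adgre1* (chr17:57358581-57483529), which encodes the macrophage surface protein F4/80, had 31, 26, 21 and 26 counts in *Arid1a* WT and 78, 61, 91 and 64 counts in *Arid1a* cKO. The genotypes were well separated, at 1.24 ± 0.206 and 4.04 ± 0.383 CPM. The log2 fold change was 1.70 (SE 0.16, 95% interval 1.35 to 2.05, edgeR quasi-likelihood test, Benjamini-Hochberg adjusted p = 2.21e-07).

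*Csf1r*, the receptor for CSF1 and IL-34 on which macrophages depend, had 18.8, 21.6, 15.6 and 21.8 counts in *Arid1a* WT and 52, 40.1, 40.8 and 41 in *Arid1a* cKO. All cKO libraries lay above all WT libraries, with means of 0.937 ± 0.0947 and 2.42 ± 0.373 CPM. Its log2 fold change was 1.35 (SE 0.19, 95% interval 0.95 to 1.76, edgeR, Benjamini-Hochberg adjusted p = 1.40e-05). With offsets for transcript length the log2 fold change of *Csf1r* was 0.81 and it was still called. *Csf1r* shared 14.9% of its 31-base words with transcripts of other genes, among them *Hmgxb3*. Part of its reads could thus have been assigned to these genes, and part of their reads to *Csf1r*.

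*Cd68* (chr11:69664213-69666170), a lysosomal glycoprotein long used to stain macrophages, had 8, 8, 12 and 13 counts in *Arid1a* WT and 12, 12, 13 and 6 in *Arid1a* cKO. *Arid1a* cKO replicate 4, at 0.386 CPM, lay below all *Arid1a* WT libraries except replicate 2, and the genotypes overlapped. Its log2 fold change was 0.27 (SE 0.31), with a 95% interval of -0.40 to 0.94 that includes both a small fall and a rise, and with edgeR the Benjamini-Hochberg adjusted p was 0.451. Its log2 fold change stayed between 0.15 and 0.50 over 18 alternative settings, and its adjusted p between 0.207 and 0.698 in their edgeR, DESeq2 and limma fits.

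*Lyz2* (chr10:117277541-117282272), lysozyme of macrophages and other myeloid cells, had 15, 21, 30 and 26 counts in *Arid1a* WT and 55, 47.2, 88 and 58 counts in *Arid1a* cKO. Its lowest cKO library, at 2.68 CPM, lay above its highest WT library, at 1.51 CPM. The log2 fold change was 1.63 (SE 0.22, 95% interval 1.15 to 2.11, edgeR, Benjamini-Hochberg adjusted p = 1.13e-05). *Lyz2* shared 32.8% of its 31-base words with its paralog *Lyz1*, the lysozyme of Paneth cells. *Lyz1* had 0 to 5 counts in any *Arid1a* WT library and 3 to 3.1 counts in any *Arid1a* cKO library, far fewer than *Lyz2*.

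All 3 C1q chains rose, and their summed TPM went from 1.92 ± 0.214 in *Arid1a* WT to 5.62 ± 0.719 in *Arid1a* cKO, a ratio of 2.93 beside 2.80 for *Lyz2*, 1.90 for the receptors and surface proteins and 1.69 for the class II genes. *C1qa* (chr4:136895916-136898844) had 12, 6, 6 and 7 counts in *Arid1a* WT and 17, 23, 25 and 19 in *Arid1a* cKO. *C1qb* (chr4:136880126-136886200) had 11, 13, 12 and 18 counts in *Arid1a* WT and 34, 27, 38 and 32 in *Arid1a* cKO. *C1qc* (chr4:136889801-136892936) had 3, 3, 8 and 5 counts in *Arid1a* WT and 10, 24, 27 and 15 in *Arid1a* cKO. In CPM no chain overlapped between genotypes, and in each chain's lowest cKO library the level was still above that of its highest WT library.

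The log2 fold change of *C1qa* was 1.63 (SE 0.29, 95% interval 1.00 to 2.27), with means of 0.372 ± 0.149 CPM in *Arid1a* WT and 1.16 ± 0.172 CPM in *Arid1a* cKO and a Benjamini-Hochberg adjusted p of 0.000163 by edgeR. *C1qb* changed by 1.48 (SE 0.21, 95% interval 1.02 to 1.94, edgeR, Benjamini-Hochberg adjusted p = 1.91e-05). *C1qc* changed by 2.17 (SE 0.40, 95% interval 1.30 to 3.04, edgeR, Benjamini-Hochberg adjusted p = 0.000219). The intervals of the 3 chains overlapped one another. *C1qc* rested on 19 counts over all *Arid1a* WT libraries (exact 95% Poisson interval 11.4 to 29.7) and 76 over all *Arid1a* cKO libraries (59.9 to 95.1), intervals that cover counting error only. The chains lie side by side on chromosome 4, with the left ends of *C1qc* and *C1qa* 9.68 kb and 15.8 kb from that of *C1qb*. Of the 5 genes tested within 150 kb of *C1qb*, the other two were *Epha8*, called higher at 0.63 (SE 0.21), and *Zbtb40*, called lower at -0.23 (SE 0.06).

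The 3 class II genes also rose, and their summed TPM was 2.68 ± 0.390 in *Arid1a* WT and 4.53 ± 0.776 in *Arid1a* cKO. *Cd74* had 17, 13, 12 and 15 counts in *Arid1a* WT and 24, 20, 29 and 13 in *Arid1a* cKO. Its library of *Arid1a* cKO replicate 4, at 0.835 CPM, fell just below that of *Arid1a* WT replicate 1, at 0.841 CPM, and the other 3 cKO libraries lay above every WT library. The log2 fold change of *Cd74* was 0.79 (SE 0.24, 95% interval 0.26 to 1.31, edgeR, Benjamini-Hochberg adjusted p = 0.00967).

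*H2-Aa* (chr17:34282744-34287823), the class II alpha chain, had 8, 8.5, 7.2 and 13.3 counts in *Arid1a* WT and 17.9, 12.3, 17.1 and 13.3 in *Arid1a* cKO. Scaled to CPM the genotypes did not overlap, although the highest WT library, 0.591 CPM, was close to the lowest cKO library, 0.685 CPM. Its log2 fold change was 0.90 (SE 0.28, 95% interval 0.30 to 1.5, edgeR, Benjamini-Hochberg adjusted p = 0.00967).

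*H2-Ab1* (chr17:34263227-34269418), the class II beta chain, had 19, 18, 13 and 22 counts in *Arid1a* WT and 26, 33, 33 and 12 in *Arid1a* cKO. *Arid1a* cKO replicate 4, at 0.771 CPM, lay inside the WT range of 0.652 to 1.00 CPM, and the other 3 cKO libraries lay above it. The log2 fold change was 0.73 (SE 0.27, 95% interval 0.15 to 1.31, edgeR, Benjamini-Hochberg adjusted p = 0.0245). *H2-Ab1* was the least secure of the called genes, since its edgeR adjusted p rose to 0.0532 without *Arid1a* WT replicate 2, 0.052 without WT replicate 3, 0.0907 without *Arid1a* cKO replicate 2 and 0.0652 without cKO replicate 3.

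**Figure D2:**
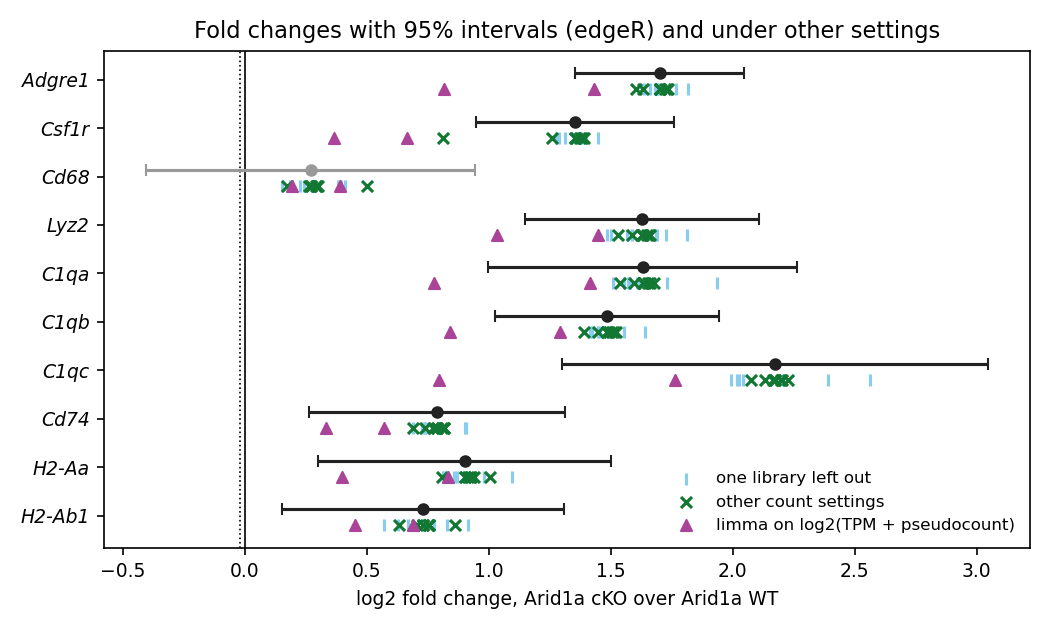
Log2 fold change of each gene, *Arid1a* cKO over *Arid1a* WT, with the 95% interval of the edgeR fit (circle and line, grey for *Cd68*, which was not called) and below it the values with one library left out, with other count settings and with limma on log2(TPM + pseudocount). The dotted line marks the median of all genes tested at -0.02, the intervals of the other 9 genes lie above 0, and no setting moved any gene below 0.

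Within a genotype, no library was high or low for all genes. Each *Arid1a* WT library was the highest of its genotype for 1 to 3 of the 10 genes, and each *Arid1a* cKO library for 1 to 4. Averaged over the 10 genes, log2 CPM deviated from the genotype mean by -0.14 in *Arid1a* WT replicate 2 to 0.13 in replicate 4, and by -0.10 in *Arid1a* cKO replicate 4 to 0.11 in replicate 3. These deviations were small beside the median difference of 1.42 between genotypes. Set against library size, the counts of each gene within a genotype gave chi-square values on 3 degrees of freedom of 0.588 to 5.87 in *Arid1a* WT and 0.884 to 8.18 in *Arid1a* cKO, the highest for *Lyz2*, where about 3 is the value that counting error alone gives on average.

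Other genes of macrophages did not move as one. Of 25 further macrophage genes listed, 24 were tested, with 4 called higher, 6 lower and 14 not called, and their median log2 fold change was -0.07. The 4 became 3 without *Arid1a* cKO replicate 3 or replicate 4. *Aif1*, which encodes the actin-binding protein IBA1, rose from 55.8 to 243.9 CPM, a log2 fold change of 2.13 (SE 0.05). Its mean TPM, 117 in *Arid1a* WT and 467 in *Arid1a* cKO, stood far above that of each of the 10 genes. For *Ptprc* the means were 0.120 and 0.531 TPM. Which cells the *Aif1* transcripts came from was not tested. *Mpeg1*, a pore-forming protein of phagocytes, fell by 2.23 on the log2 scale (SE 0.15). *Mrc1*, the mannose receptor, fell by 1.95 (SE 0.08) and *Mertk*, a receptor for dying cells that Sertoli cells also use, fell by 1.70 (SE 0.19). The other 3 that rose had mean TPM below that of each of the 10 genes in both genotypes and are named after their values were seen: *Ptprc* (CD45, of all white blood cells) at 1.61 (SE 0.32), *Laptm5* at 1.46 (SE 0.51) and *Cd53* at 1.36 (SE 0.41). The summed TPM of the list, 290.8 to 307.9 in *Arid1a* WT and 539.6 to 553.8 in *Arid1a* cKO, came mostly from *Aif1* and *Fcgr3*, an Fc receptor that fell by 1.06 (SE 0.08).

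The rest of the class II pathway moved in both directions. Of 13 further genes listed, 10 were tested, and 3 were called higher, 5 lower and 2 not called, with a median of -0.40. The 3 became 4 without *Arid1a* WT replicate 2. *H2-DMa*, a chain of the H2-DM molecule that loads peptides on class II, rose from 7.42 to 18.7 CPM, a log2 fold change of 1.33 (SE 0.08). The partner chains went the other way: *H2-DMb2* fell by 2.34 (SE 0.46) and *H2-DMb1* by 1.21 (SE 0.28). *H2-DMb2* was at 2.08, 3.61, 8.93 and 2.55 CPM in the *Arid1a* WT libraries, so the size of its fall leans on replicate 3. Its *Arid1a* cKO libraries all lay below every *Arid1a* WT library. *H2-Eb1*, a second class II beta chain, had 3, 4, 3 and 0 counts in *Arid1a* WT and 7, 9, 13 and 10 in *Arid1a* cKO, and was called higher. *Ctss*, the protease that trims Cd74, was called higher at 1.30 (SE 0.40) on a similarly low level.

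Of the factors that act on class II promoters, *Rfxap* fell from 32.6 to 8.15 CPM, by 2.0 on the log2 scale (SE 0.06). *Rfx5* fell from 33.3 to 8.78 CPM, by 1.92 (SE 0.10). *Rfxank*, the remaining subunit of the RFX complex, had a log2 fold change of 0.00 (SE 0.09). *Ciita*, the class II transactivator that macrophages need for class II transcription, had 3 counts over all *Arid1a* WT libraries and 10 over all *Arid1a* cKO libraries and was not called (edgeR, Benjamini-Hochberg adjusted p = 0.0627). The RFX genes are expressed in many cell types. Mean TPM was 73.1 in *Arid1a* WT and 13.1 in *Arid1a* cKO for *Rfxap*, and 21.5 and 5.08 for *Rfx5*.

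**Figure D3:**
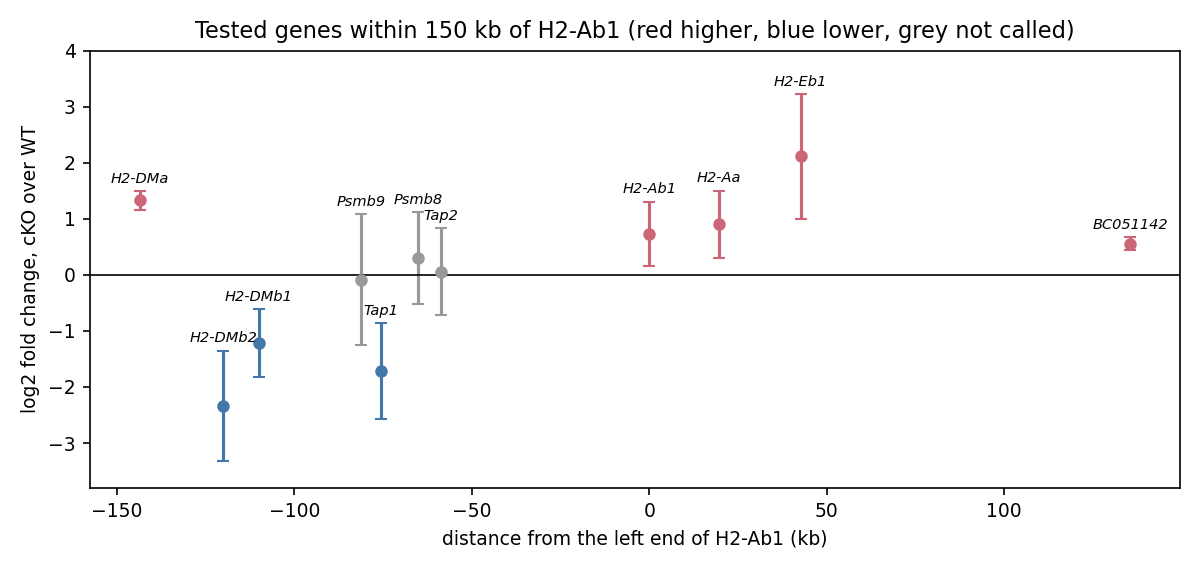
Log2 fold changes with 95% intervals of the 11 tested genes within 150 kb of *H2-Ab1*, plotted by the distance of their left ends from that of *H2-Ab1* in kb. *H2-Ab1*, *H2-Aa* and *H2-Eb1* lie next to one another and all were called higher, and on the left *H2-DMa* was called higher and *H2-DMb2*, *H2-DMb1* and *Tap1* lower.

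Along the class II region of chromosome 17, 5 of 11 genes tested within 150 kb of *H2-Ab1* were called higher, 3 lower and 3 were not called. Over all genes tested, 36.5% were called higher and 37.5% lower. Those called higher in the region included *H2-Ab1* and *H2-Aa* themselves and *BC051142*, which rose from 739 to 1089 CPM. *H2-DMa*, at a distance of -143.5 kb, was among those called higher. The left ends of *H2-Aa* and *H2-Eb1* lie 19.5 kb and 42.6 kb to the right of that of *H2-Ab1*, and these 3 neighbours had log2 fold changes of 0.73, 0.90 and 2.11. The class I peptide transporter *Tap1*, at a distance of -75.7 kb, fell by 1.72 (SE 0.40). *Tap2*, *Psmb8* and *Psmb9*, also of the class I pathway, were not called.

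Of 13 other complement genes tested, 6 were called higher, 1 lower and 6 not called, with a median of 0.62. *Serping1*, the inhibitor of the C1 complex, rose by 1.06 (SE 0.15). *Cd59a*, which blocks the membrane attack complex, rose by 0.73 (SE 0.14). *C4b*, which C1s cleaves downstream of C1q, fell by 0.69 (SE 0.08). The C1 protease *C1s1* was called higher at 1.16 (SE 0.31), whereas *C1ra* had a log2 fold change of 0.53 (SE 0.32) and was not called.

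None of 5 genes of CSF1 and related cytokine signalling was called higher and 3 were called lower, with a median of -1.11. The 3 became 2 without *Arid1a* WT replicate 2, WT replicate 3 or *Arid1a* cKO replicate 1. The count was also 2 with transcript length offsets, with limma on TPM at either pseudocount and at an adjusted p of 0.01. *Il34*, a ligand of Csf1r, fell by 1.35 (SE 0.23). *Csf2ra*, the alpha chain of the GM-CSF receptor, fell by 1.11 (SE 0.15). *Csf1*, the other ligand of Csf1r, had a log2 fold change of 0.20 (SE 0.30) and was not called. Among 10 class I pathway genes, 2 were called higher, 3 lower and 5 not called, with a median of -0.06. *Tapbp*, which tethers class I to the peptide transporter, fell by 0.83 (SE 0.05), *H2-K1* fell by 0.68 (SE 0.06) and *H2-D1* rose by 0.25 (SE 0.06). *Nlrc5*, the class I transactivator, was called higher at 0.54 (SE 0.21), and the count of 2 fell to 1 without *Arid1a* WT replicate 4, *Arid1a* cKO replicate 3 or cKO replicate 4. The class I count of 2 was also 1 with DESeq2, without TMM, with the replicate block, with transcript length offsets and at an adjusted p of 0.01, and it was 0 with limma on TPM at either pseudocount.

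**Figure D4:**
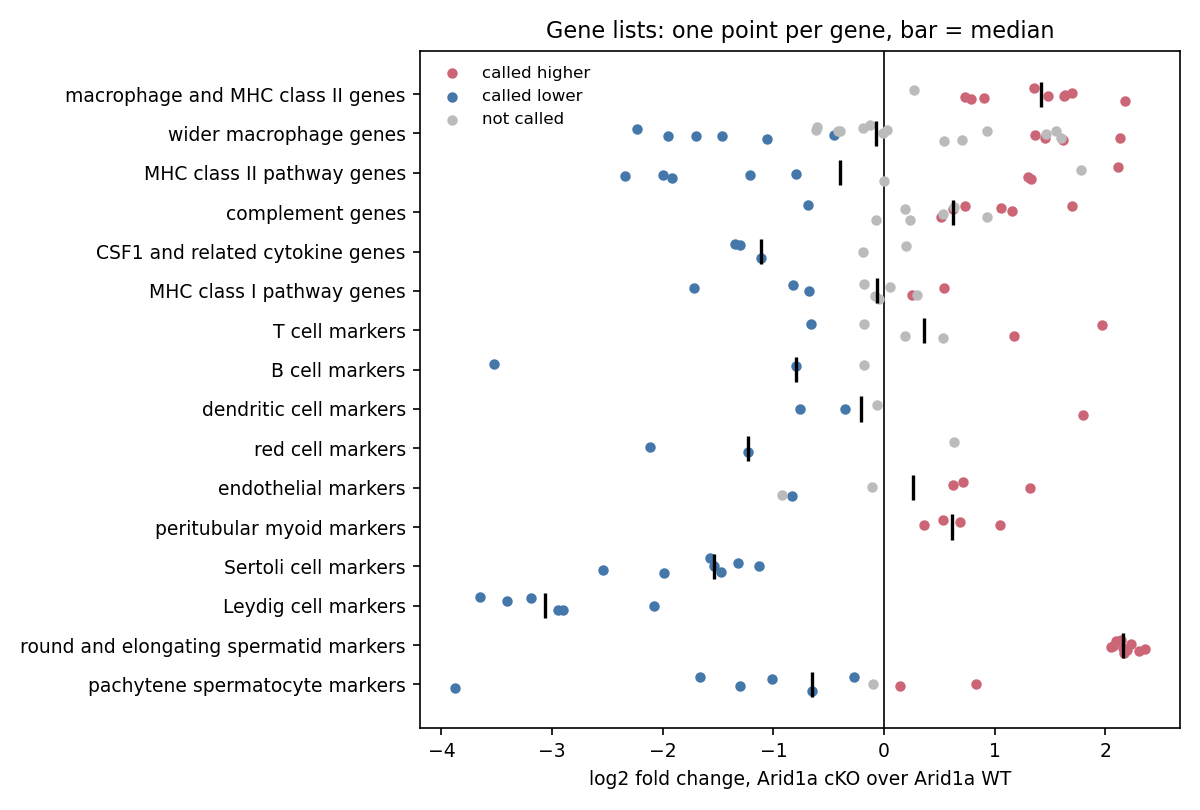
Log2 fold change, *Arid1a* cKO over *Arid1a* WT, of every tested gene of each list, coloured by call, with a bar at the list's median; lists with fewer than 3 tested genes are left out. The 10 macrophage and MHC class II genes studied lie to the right with a median of 1.42. The wider macrophage and class II pathway lists spread to both sides, with medians of -0.07 and -0.40. The Leydig and Sertoli markers lie to the left with medians of -3.07 and -1.54, and the spermatid markers to the right with a median of 2.16.

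The cell types that the fractions could hold also differed between genotypes, and their part in the results above was not tested. Pachytene markers were abundant, at 6023 to 6499 summed TPM in *Arid1a* WT and 4046 to 4369 in *Arid1a* cKO. Of the 9 pachytene markers tested, 6 were called lower, 2 higher and 1 was not called. Their median log2 fold change was -0.65 (range -3.88 to 0.83). All 10 round and elongating spermatid markers were called higher in *Arid1a* cKO, with summed TPM of 5966 to 6785 in *Arid1a* WT and 24610 to 26450 in *Arid1a* cKO. All 6 Leydig cell markers were called lower, from 78.3 to 91.3 summed TPM down to 6.88 to 8.58, and all 7 Sertoli cell markers were called lower, from 421.3 to 490.1 down to 119.4 to 126.9. The 9 macrophage and class II genes that were called thus moved in the opposite direction to these Leydig and Sertoli cell markers. They moved in the same direction as the 10 spermatid markers and as the 4 peritubular myoid markers given below.

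Markers of the remaining blood and wall cells were also measured. All 4 peritubular myoid markers were called higher, with a median of 0.61 and summed TPM of 7.33 to 9.71 in *Arid1a* WT and 10.1 to 12.5 in *Arid1a* cKO, and 2 were called without *Arid1a* cKO replicate 2. Of 6 endothelial markers, 3 were called higher and 1 lower, the latter count rising to 2 without *Arid1a* WT replicate 2, WT replicate 4 or *Arid1a* cKO replicate 2. Of other cells that carry class II, 4 of 5 dendritic cell markers were tested with 1 called higher and 2 lower. The higher count was 0 with filterByExpr, and the lower count was 1 with transcript length offsets and with limma on TPM at either pseudocount. Dendritic cell markers had 6.23 to 7.48 summed TPM in *Arid1a* WT and 5.04 to 6.07 in *Arid1a* cKO, and *Cd209a* was at 0 in every library. Of 4 B cell markers, 3 were tested with none called higher and 2 lower (1 without *Arid1a* WT replicate 3 or *Arid1a* cKO replicate 2), at 2.78 to 5.71 and 0.766 to 1.08 summed TPM, and *Cd79b* was at 0. Of 7 neutrophil markers 1 was tested and it was not called, at 0.542 to 1.69 summed TPM in *Arid1a* WT and 0.381 to 1.82 in *Arid1a* cKO, with *Ngp* at 0. Of 6 T cell markers 2 were called higher and 1 lower, and their summed TPM of 13.1 to 16.3 in *Arid1a* WT and 25.6 to 29.0 in *Arid1a* cKO lay above that of the 10 genes in both genotypes and was higher in all 4 *Arid1a* cKO libraries. Most of it came from *Cd3d*, a chain of the T cell receptor complex, at mean TPM of 10.2 and 24.3. The other CD3 chains were far lower, with mean TPM of 0.239 and 0.901 for *Cd3e* and 0.0387 and 0.109 for *Cd3g*. Which cells the *Cd3d* transcripts came from was not tested. Of 4 mast cell markers the 1 tested was called higher, at 0.210 to 0.468 and 0.787 to 1.23 summed TPM, with *Cma1*, *Mcpt4* and *Tpsb2* at 0. Of 4 red cell markers listed 3 were tested and 2 called lower, at 10.8 to 11.7 and 3.36 to 4.65 summed TPM.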

How the data were processed

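RNA-seq of 4 *Arid1a* WT and 4 *Arid1a* cKO pachytene spermatocyte preparations was analysed. The authors quantified reads with Salmon and summarized transcripts per gene with tximport on mm10 annotation, and deposited estimated counts per Entrez gene that are not scaled for depth or length. The authors also deposited TPM, whose listed genes add up to 78.1% to 81.1% of the library total in *Arid1a* WT and 88.1% to 88.6% in *Arid1a* cKO. Their DESeq2 table of log2 fold changes, standard errors and p-values was not used. No column was left unmapped, and tool versions are not given in the sources used here.

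Of 21058 genes, 21036 had a RefSeq record (GRCm38.p6) giving symbol and position. The design assumed whole counts, so the estimated counts were rounded first. A gene entered the test if its counts over the 8 libraries came to 10 or more. In R 4.3.3, edgeR 4.0.16 was run with TMM, glmQLFit and glmQLFTest on genotype alone, with p-values adjusted by Benjamini-Hochberg and a threshold of 0.05. Standard errors were fold changes divided by the square root of F. Log2 CPM used a prior count of 2. The code was tested on simulated data. Shared 31-base words were counted in GENCODE M21 transcripts. No pair of libraries had like counts within sampling noise. Alternatives were DESeq2 1.42.0, library size without TMM, DESeq2 size factors in edgeR, filterByExpr, no filter beyond 1 count, the replicate number as a block, transcript length offsets, limma 3.58.1 on log2(TPM + 1) and with 0.1 in place of 1, a threshold of 0.01, and each library left out in turn. Tables and plots used Python 3.11.15, pandas 2.3.3 and matplotlib 3.10.9.

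The genes studied and the lists were chosen with earlier results of these data known. All 10 genes were described. From each wider list of macrophage, class II, complement, cytokine and class I genes, up to 3 called genes per direction with the largest change and a mean log2 CPM of 0 or more were named, and other genes of these lists were named after their values were seen. Some of what the rule takes in is not reported here. Likeness to the 10 genes was ranked by Pearson correlation of deviations from the genotype mean. ATAC-seq, CUT&RUN and imaging were not analysed here.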

Additional observations from a re-analysis of the deposited data

Results flagged for a closer look

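In a group of 4 libraries, 1 value stood apart from the rest. *C1qa* was at 0.594 CPM in *Arid1a* WT replicate 1, against 0.274 to 0.318 CPM in the other 3 *Arid1a* WT libraries, so that the gap to its neighbour took up 0.862 of the whole range, above Dixon's critical value for 4 samples. All 10 genes were examined in both genotypes, 20 groups in all, of which chance alone passes about 1. Without *Arid1a* WT replicate 1 the log2 fold change of *C1qa* was 1.94, the highest over its alternatives, and *C1qa* was called with and without that library.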

How the results depend on the processing

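Of 180 member fold changes under alternatives (10 genes, 18 settings), 175 kept their direction and their side of the threshold, 0 reversed, and 5 were no longer called, all of *H2-Ab1*: the 4 left-out libraries named above and an adjusted p of 0.01. With one library left out, 8 to 9 of the 10 genes were called higher and their median log2 fold change was 1.37 to 1.49. That median was 1.42 as reported, 0.614 with limma on log2(TPM + 1) and 1.06 with log2(TPM + 0.1), settings that change the unit and the pseudocount together, and the cause was not tested. With filterByExpr, which tests 15316 genes, 2 wider macrophage genes and 1 class II pathway gene were called higher, against 4 and 3. Whether same-numbered libraries share a preparation is unknown from the labels, and their deviations correlated at 0.202, 0.042, 0.0944 and -0.0917, and 1 of 4 numbers correlated best with itself. With the replicate block, 9 of the 10 genes were called higher (median 1.43), beside 6429 genes called higher and 6671 lower overall. Without TMM the median of all genes moved from -0.02 to -0.12. At 3 to 91 counts per gene and library, the 95% interval of *Cd68* does not exclude a rise of up to 1.93-fold.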

Other observations

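The genes whose library-to-library deviations within genotypes were most like those of the 10 genes' mean log2 CPM were *Clip1*, *Gne*, *Pwwp2b*, *Zfp420* and *Cdk2ap2*, with Pearson correlations of 0.973, 0.972, 0.967, 0.947 and 0.943 over 8 libraries. They came first among 12795 genes compared, and the libraries share depth and scaling, so the values are a description. Their log2 fold changes differed in direction, at 2.11, 1.74, 2.14, -0.53 and 0.51 (*Arid1a* cKO over *Arid1a* WT), and none is among the macrophage genes listed.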
